A study of Mus musculus with 2 samples.

Results

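Immediate-early and early response genes are the 37 genes described here, of 27998 genes counted in single macrophages sorted from the mouse small intestine. They were taken as a listed set of genes that cells switch on fast after a stimulus, and all 37 were found by symbol in both count matrices. By role they were split into 18 fast transcription factors, 8 genes classed as feedback regulators, most of which restrain the same signals, and 11 other early genes. A cell was used if it had 200 or more genes detected and no more than 10% of its UMIs from mitochondrial genes, where a UMI (unique molecular identifier) marks 1 captured transcript end.

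The study held 1 library from wild-type (WT) mice and 1 from CCR2-/- mice, which lack the receptor for CCL2 on which blood monocytes depend to exit the bone marrow. Per the labels, the WT animals were male C57BL/6J mice bought from Janvier, and the CCR2-/- animals were a JAX strain bred in-house. For each genotype 3 to 4 intestines were pooled, digested with Liberase TL and sorted for live CD45+ cells without lineage markers or Ly6C that carried CD11b, MHC class II and CD64. Genotype, source of the animals, handling and depth therefore cannot be told apart. The WT cells came from 2 lanes, which were told by their barcode suffix and serve as a yardstick within the WT library, not as replicates. With 1 library per genotype no test was possible, and every interval below is an exact 95% interval that covers counting error only.

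Immediate-early genes are transcribed within minutes of a signal, without new protein synthesis, because the factors that switch them on are already present in the resting cell. Serum response factor, CREB and NF-kB are such preformed factors, and MAP kinases and the IkB kinase complex activate them. Their products include both the AP-1 and EGR transcription factors that drive later genes and the phosphatases, IkB proteins and mRNA decay factors that end the response. In macrophages they respond to microbial products, cytokines and tissue damage, and they are also known to respond to the digestion and handling of tissue.

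The sites that such preformed factors bind can be read in the members' promoters, and 5 feedback regulators are shown because their level or role is central below. RefSeq promoters (GRCm38.p6) were matched for 31 of 37 members, in 43 windows of 300 bases. Egr1, Egr3, Myc, Nfkbiz, Ier2 and Bhlhe40 were not matched. Each line gives the 250 bases before the start, 5′ to 3′ on the gene's strand, and positions count back from -1 at the last base.
Dusp1, with a CRE site in capitals, chr17:26508473-26508722, minus strand: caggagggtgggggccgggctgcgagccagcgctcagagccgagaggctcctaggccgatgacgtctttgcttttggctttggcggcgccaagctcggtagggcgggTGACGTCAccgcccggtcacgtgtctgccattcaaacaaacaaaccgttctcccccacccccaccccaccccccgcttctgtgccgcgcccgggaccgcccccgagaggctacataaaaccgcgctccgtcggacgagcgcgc
Dusp5, with a pair of CArG boxes in capitals, chr19:53528895-53529144, plus strand: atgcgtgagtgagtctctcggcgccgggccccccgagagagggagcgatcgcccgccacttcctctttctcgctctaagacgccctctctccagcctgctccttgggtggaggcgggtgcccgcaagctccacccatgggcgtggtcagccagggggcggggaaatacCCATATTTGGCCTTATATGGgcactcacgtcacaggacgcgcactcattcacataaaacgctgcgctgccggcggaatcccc
Zfp36, with an EGR site and then a CArG box in capitals, chr7:28379229-28379478, minus strand: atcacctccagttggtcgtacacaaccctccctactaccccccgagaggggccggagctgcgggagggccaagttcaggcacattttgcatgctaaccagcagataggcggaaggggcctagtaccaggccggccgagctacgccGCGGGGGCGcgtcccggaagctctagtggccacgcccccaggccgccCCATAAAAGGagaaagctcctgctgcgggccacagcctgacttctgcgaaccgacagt
Tnfaip3, with an AP-1 site and then 2 NF-kB sites in capitals, chr10:19015411-19015660, minus strand: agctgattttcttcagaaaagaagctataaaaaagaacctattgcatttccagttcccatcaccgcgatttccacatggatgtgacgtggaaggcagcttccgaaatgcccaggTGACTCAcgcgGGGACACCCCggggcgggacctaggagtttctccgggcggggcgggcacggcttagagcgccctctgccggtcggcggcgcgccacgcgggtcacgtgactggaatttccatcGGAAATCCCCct
Nfkbia, with an NF-kB site in capitals, chr12:55492648-55492897, minus strand: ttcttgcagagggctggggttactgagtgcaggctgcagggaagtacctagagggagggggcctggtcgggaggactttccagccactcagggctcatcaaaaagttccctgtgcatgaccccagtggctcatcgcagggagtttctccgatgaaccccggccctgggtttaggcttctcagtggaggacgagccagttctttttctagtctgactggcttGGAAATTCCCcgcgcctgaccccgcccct

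Both strands were searched for each motif. The full CRE (TGACGTCA), bound by CREB and ATF proteins, began at -143 in Dusp1, and it was also found in Btg2, Maff and Plk2. It was present in 9.30% of the 43 member windows and in 1.79% of all 32851 windows of that length. The CArG box, bound by serum response factor, was found in Dusp5 at -82 and -72, in Zfp36 at -58 and in Egr2. It was present in 14.0% of member windows, most of them of Egr2, and in 1.63% of all windows. The NF-kB motif was found in 8 member genes, among them Tnfaip3 at -125 and -12 and Nfkbia at -29. Its share was 18.6% of member windows and 4.51% of all windows. The EGR site (GCGNGGGCG) was found in 10 member genes, in 23.3% of member windows and 5.55% of all windows. The AP-1 site (TGANTCA) was found in Csrnp1 and Tnfaip3, in 4.65% of member windows and 7.81% of all windows. Several member windows overlap because they belong to alternative starts of 1 gene, and a match is a description of letters, not a bound site.

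The WT library held 3016 usable cells of 3054 with a median of 6129 UMIs, and the CCR2-/- library 2612 of 2774 with a median of 2439 UMIs. Macrophage markers were abundant in both, at 16063 and 13881 CPM (UMIs per 1000000 UMIs of the library) over 10 genes, with C1qa highest in WT and C1qc highest in CCR2-/-. T and innate lymphoid markers summed to 12.4 and 26.3 CPM over 8 genes, and neutrophil markers to 36.2 and 45.4 CPM, with S100a8, S100a9 and Ly6g at 0. Fibroblast markers stood at 36.7 CPM in WT and 276 CPM in CCR2-/-, endothelial markers at 69.6 and 226 CPM, and erythroid markers at 762 and 7435 CPM. Resident macrophage markers were at 603 CPM in WT and 1508 CPM in CCR2-/-, monocyte markers at 759 and 221 CPM, and MHC class II genes at 58545 and 35227 CPM, so the make-up of the macrophages differed along with the early genes. The monocyte sum includes Ccr2 itself, at 331 and 6.88 CPM, so that part of its difference follows from the genotype. The erythroid sum was 1080 CPM in WT lane 1 and 3.44 CPM in lane 2, and 3015 of the 3016 WT cells had under 5% haemoglobin UMIs. Ribosomal protein transcripts made up 20.3% of WT and 12.6% of CCR2-/- UMIs, and mitochondrial transcripts 3.08% and 4.13%. The part of these other transcripts and of the make-up in the results was not tested, and values within strata of depth and mitochondrial share are given below. The libraries shared 6 cell barcodes, and the WT lanes shared 5.

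Early response genes took a larger share of the transcripts of CCR2-/- macrophages. Together the 37 genes made up 1.09% of UMIs in WT lane 1, 1.07% in WT lane 2 and 3.84% in the CCR2-/- library. The CCR2-/- share was 3.54-fold the WT share, a log2 ratio of 1.83 (1.82 to 1.83). Of the 37, Egr3 did not reach a mean of 10 CPM, with 2 UMIs in WT and 4 in CCR2-/-. All 36 that did were higher in CCR2-/- by some amount (Myc not under median-of-ratios scaling), beside 62.3% of all genes tested. Of these 36, 33 were at least 2-fold higher in CCR2-/- (91.7%) and 0 were at least 2-fold lower. Over all 7401 genes with that mean, 9.04% were at least 2-fold higher and 3.12% at least 2-fold lower. These log2 ratios of single genes are of CPM + 1, which understates the ratio of low genes. The members' median was 1.74, with a range of 0.22 to 3.03, and the median of all genes tested was 0.18. Under median-of-ratios scaling 30 members were at least 2-fold higher, the median of all genes was -0.11, and 34.7% in place of 74.3% of all genes past 2-fold were the higher ones.

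The lanes gave a measure of spread within the WT library. Their suffix does not tell whether they held the same cell suspension. Their erythroid sums were 1080 and 3.44 CPM, but 3015 of the 3016 WT cells had under 5% haemoglobin UMIs. Very few cells can therefore carry the lane 1 sum. Between WT lane 2 and lane 1 the members' median log2 ratio was -0.03 and ranged from -0.48 to 0.50. None of the 36 passed 2-fold in either direction, where 0.0405% of all genes were higher and 0.838% lower by that much. In CCR2-/- 33 members were at least 2-fold higher than in lane 1 and also than in lane 2, where 8.08% of all genes were so for lane 1 and 14.5% for lane 2. The counting interval of CCR2-/- stood apart from those of both lanes and was higher for 35 of the 36, Myc being the exception, beside 34.7% of all genes tested. Such intervals are narrow for abundant genes, so this count depends on level as well as on the ratio.

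**Figure D1:**
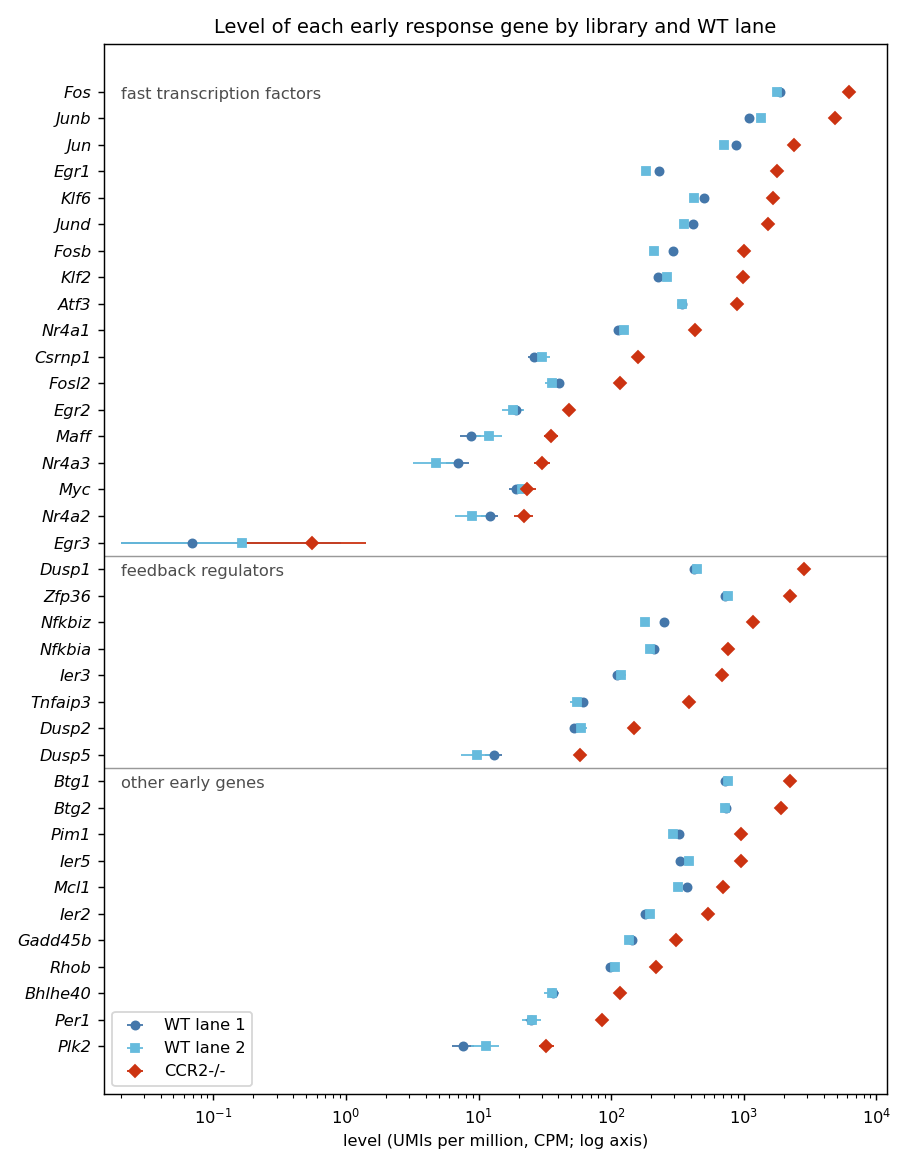
Level of each of the 37 genes in WT lane 1, WT lane 2 and CCR2-/- in CPM on a log axis, grouped by role. The lane points lie close together for most genes, and the CCR2-/- point lies to their right by more than the counting intervals for all but Myc and Egr3.

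Among the fast transcription factors, the AP-1 family was the most abundant. Its 6 genes summed to 4607 CPM in lane 1, 4445 CPM in lane 2 and 16042 CPM in CCR2-/-, a log2 ratio of 1.82. Fos, the leading partner of Jun proteins in AP-1 (GRCm38 chr12:85473890-85477273, plus strand), was the highest member in each library. Its level was 1882 CPM in lane 1, 1783 CPM in lane 2 and 6169 CPM in CCR2-/-, so that CCR2-/- was high and the lanes were close, with a log2 ratio of 1.73.

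Junb, which tempers Jun activity in many settings, stood at 1100, 1350 and 4831 CPM in lane 1, lane 2 and CCR2-/- (log2 ratio 2.04). Jun itself stood at 879, 710 and 2407 CPM (1.54). Jund, the AP-1 member with the most constant expression in most tissues, stood at 411, 355 and 1508 CPM (1.93). All 3 Jun genes were thus higher in CCR2-/- than in either lane. Fosb was at 294, 210 and 1011 CPM (1.91), and its lanes were further apart than those of Fos. Fosl2 was at 40.1, 36.0 and 116 CPM (1.55).

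Egr1, a zinc-finger factor that is a classic readout of MAP kinase signalling, had the highest ratio of all members. It was at 229 CPM in lane 1, 183 CPM in lane 2 and 1772 CPM in CCR2-/-, a log2 ratio of 3.03. By level it was the 17th of the 37 in WT and the 8th in CCR2-/-. Egr2, its relative with a role in macrophage and lymphocyte restraint, was far lower at 19.2, 18.2 and 47.9 CPM (1.30). The EGR family was therefore almost entirely Egr1 in both libraries.

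The orphan nuclear receptors of the NR4A family, which are induced by many stimuli and restrain inflammatory genes in macrophages, had unequal ratios. Nr4a1 was at 113, 125 and 426 CPM in lane 1, lane 2 and CCR2-/- (log2 ratio 1.86). Nr4a3 was at 7.0, 4.75 and 30.1 CPM (2.09), a value that was 1.30 with a pseudocount of 10 CPM. Nr4a2 was at 12.1, 8.84 and 21.9 CPM (0.91), below 2-fold. In cells of 2000 to 4000 UMIs the ratio of Nr4a1 was 1.15.

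The zinc-finger factors Klf2, which holds macrophages in a quiet state, and Klf6, which favours inflammatory gene expression, were both higher in CCR2-/-. Klf2 stood at 227, 262 and 992 CPM (log2 ratio 2.06) and Klf6 at 500, 418 and 1662 CPM (1.801). Atf3, a stress-induced repressor of cytokine genes, was at 339, 341 and 882 CPM (1.38). Csrnp1, a nuclear protein induced by many stimuli, was at 25.9, 29.97 and 160 CPM (2.52), and the small Maf protein Maff at 8.72, 12.0 and 35.4 CPM (1.77).

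Myc, the growth-linked factor, was the member closest to equal. It stood at 19.3, 21.3 and 23.3 CPM in lane 1, lane 2 and CCR2-/-, with overlapping intervals and a log2 ratio of 0.22, which was -0.08 under median-of-ratios scaling.

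The feedback regulators had the larger ratios. All 8 were at least 2-fold higher in CCR2-/-, with a median log2 ratio of 2.26, against 15 of 17 and a median of 1.801 for the fast transcription factors. Of the 10 members at least 4-fold higher, 5 were fast transcription factors, 5 were feedback regulators and 0 were other early genes, where 1.41% of all genes were higher by that much. As sums, the feedback regulators went from 1841 CPM in lane 1 and 1826 CPM in lane 2 to 8280 CPM in CCR2-/-, a log2 ratio of 2.17 (2.15 to 2.19). The fast transcription factors went from 6107 and 5869 CPM to 22094 CPM, a log2 ratio of 1.87 (1.86 to 1.88). In cells of 2000 to 4000 UMIs these ratios were 1.76 and 1.66.

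Dusp1, the phosphatase that switches off p38 and JNK and whose promoter carries the CRE shown above, led this class. It stood at 420 CPM in lane 1, 441 CPM in lane 2 and 2829 CPM in CCR2-/-, a log2 ratio of 2.73, and was the 8th member by level in WT and the 3rd in CCR2-/-. The ratio was 2.10 in cells of 2000 to 4000 UMIs. Dusp5, a nuclear phosphatase for ERK, was at 12.97, 9.66 and 57.9 CPM (2.18, or 1.32 in cells of 2000 to 4000 UMIs). Dusp2, another nuclear MAP kinase phosphatase, was at 52.3, 59.4 and 148 CPM (1.43).

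The genes grouped as inhibitors of NF-kB were higher too. Tnfaip3 (A20), a ubiquitin-editing enzyme that stops signalling to NF-kB, was at 61.5, 54.9 and 387 CPM in lane 1, lane 2 and CCR2-/- (log2 ratio 2.68, or 1.95 in cells of 2000 to 4000 UMIs). Nfkbia, the IkB protein that holds NF-kB in the cytoplasm, was at 209, 197 and 764 CPM (1.89). Nfkbiz, a nuclear IkB protein that serves as a cofactor for some NF-kB targets, was at 251, 179 and 1173 CPM (2.35).

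Ier3, an early gene tied to NF-kB and ERK signalling and to cell survival, was at 110, 119 and 683 CPM (log2 ratio 2.58). Zfp36, the tristetraprolin protein that destroys cytokine mRNAs, was the second most abundant feedback regulator in CCR2-/- and the most abundant in WT, at 724, 765 and 2239 CPM (1.60). Its ratio was therefore among the lower ones of the class, with that of Dusp2.

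**Figure D2:**
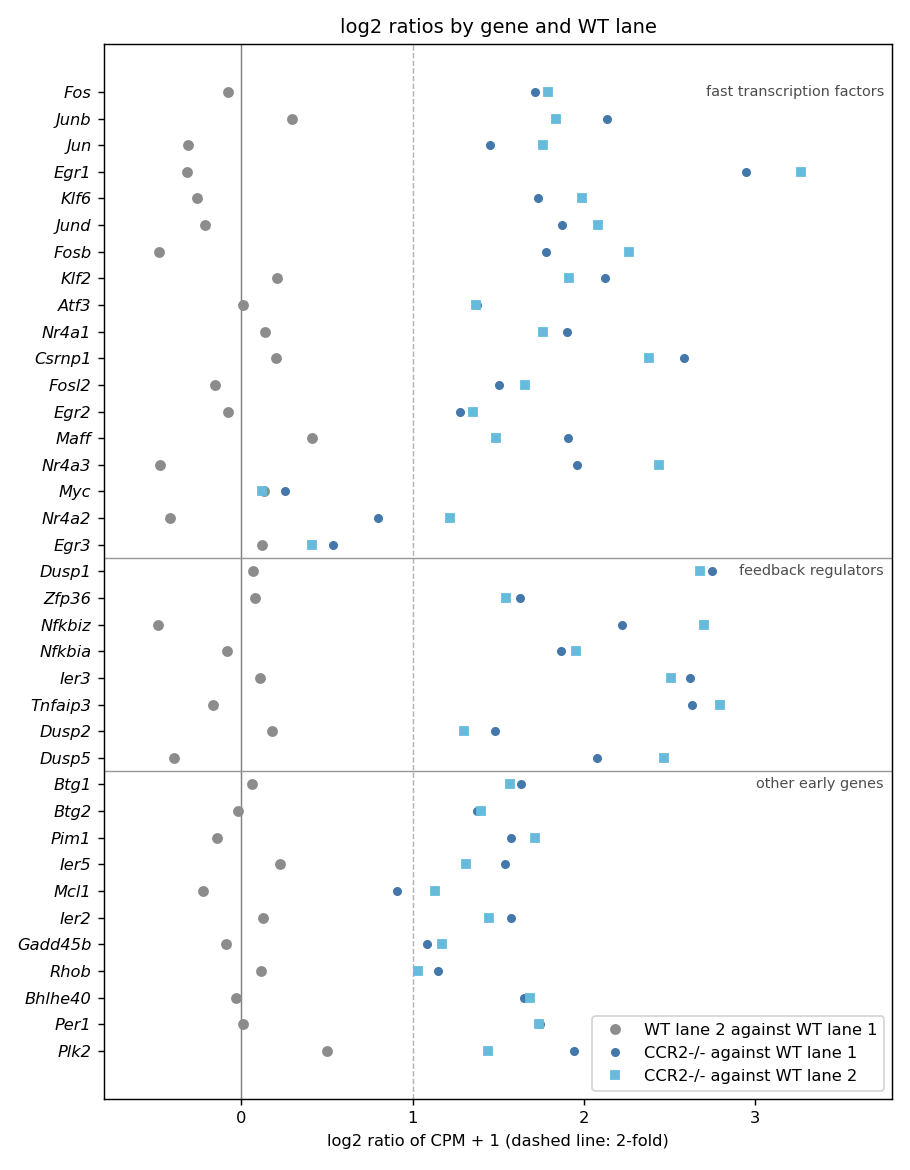
log2 ratio of CPM + 1 for each gene, CCR2-/- over each WT lane and lane 2 over lane 1, with the dashed line at 2-fold. The lane ratios stay between -0.48 and 0.50 and 33 members lie past the line over both lanes, with Egr1 highest over each. Nr4a2 and Mcl1 pass it over lane 2 alone.

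The 11 other early genes summed to 2966 CPM in lane 1, 2980 CPM in lane 2 and 8047 CPM in CCR2-/-, a log2 ratio of 1.44. The anti-proliferative genes Btg1 and Btg2 were the most abundant. Btg1 was at 722, 754 and 2239 CPM (1.61) and Btg2 at 730, 719 and 1897 CPM (1.38). Pim1, a survival kinase, was at 322, 292 and 960 CPM (1.61), and the kinase Plk2 at 7.69, 11.3 and 32.3 CPM (1.77, or 0.89 in cells of 2000 to 4000 UMIs). These 4 genes were higher in CCR2-/- than in both lanes.

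The early genes Ier2 and Ier5 were at 180, 196 and 536 CPM (1.53) and at 329, 386 and 957 CPM (1.47). The circadian repressors Per1 and Bhlhe40 were at 24.9, 25.1 and 85.7 CPM (1.74) and at 36.4, 35.5 and 116 CPM (1.66). Gadd45b, a stress sensor upstream of p38, was at 144, 136 and 307 CPM, and the GTPase Rhob at 97.9, 106 and 218 CPM, with a log2 ratio of 1.11 for each. Gadd45b, Rhob and Egr2 were the 3 members that fell short of 2-fold under median-of-ratios scaling. Mcl1, a short-lived survival protein of the Bcl-2 family, was at 373, 319 and 699 CPM (0.97), just under 2-fold, and Rhob and Gadd45b lay just above it.

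The higher level was spread over nearly all CCR2-/- cells. To compare cells at equal depth, each was thinned at random to 1000 UMIs, which left out 1 WT and 196 CCR2-/- cells. The 37 genes then had a median of 10 UMIs per cell in WT lane 1, 9 in lane 2 and 39 in CCR2-/-. The 5th percentile was 2 in WT and 13 in CCR2-/-, the 25th was 6 and 28, the 75th 15 and 53, and the 95th 28 and 77. Of 2416 CCR2-/- cells, 2334 lay above the WT median, or 96.6% (95.8 to 97.3, Clopper-Pearson). Above the WT 95th percentile lay 73.7% of CCR2-/- cells (71.9 to 75.5), 4.22% of lane 1 cells and 6.51% of lane 2 cells. Within 2 UMIs of that limit lay 9.98% of CCR2-/- cells.

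In fold terms the ratio varied along the distribution. Without thinning, the members' share of a cell's UMIs had a median of 0.967% in WT and 4.02% in CCR2-/-. The CCR2-/- value was 2.35-fold the WT value at the 1st percentile, 4.49-fold at the 5th, 4.92-fold at the 10th, 4.16-fold at the median, 2.85-fold at the 95th and 2.21-fold at the 99th. Over thinned cells the variance divided by the mean was 6.35 in WT and 8.86 in CCR2-/-, at means of 11.6 and 41.4 UMIs. Relative to the mean, the spread was smaller in CCR2-/-, with a standard deviation of 46.3% of the mean against 73.8% in WT. In cells with at least 0.5% of UMIs from the C1q genes the medians were 9 and 39, and 98.0% of 2056 CCR2-/- cells lay above the median of WT cells chosen in the same way.

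**Figure D3:**
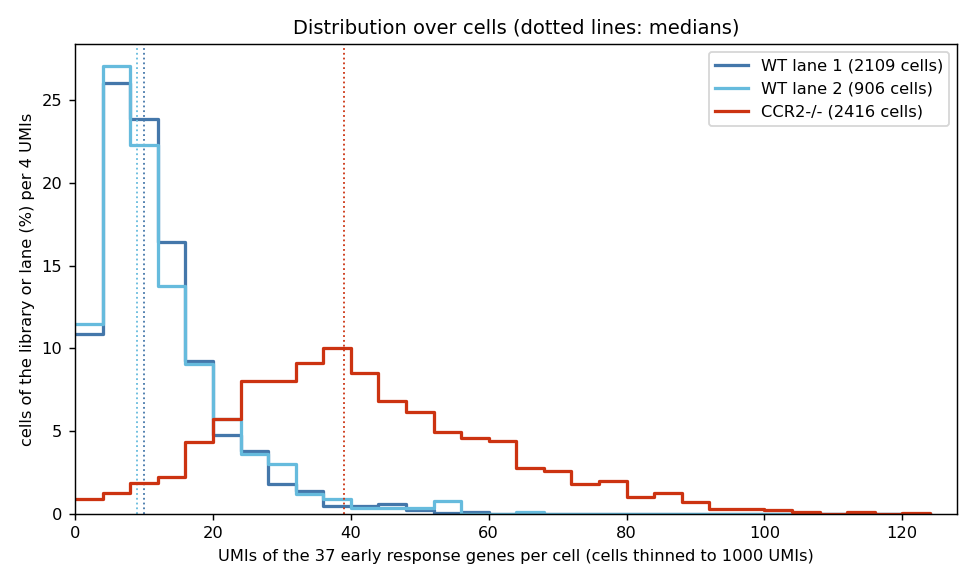
Share of cells in percent per 4 UMIs against the UMIs of the 37 genes per cell, for cells thinned to 1000 UMIs, with dotted lines at the medians of 10, 9 and 39. The WT lanes overlie each other and the CCR2-/- curve is a single broad hump to their right.

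The few cells at the ends differed in content. The 82 CCR2-/- cells at or below the WT median had erythroid markers at 81744 CPM, fibroblast markers at 1451 CPM and B and plasma cell markers at 5171 CPM. In all CCR2-/- cells these were 3336, 168 and 1490 CPM. Of the 2612 CCR2-/- cells before thinning, 2604 had under 5% haemoglobin UMIs, so few cells can carry the erythroid sum of the 82. C1q was under 0.5% of UMIs in 45.1% of the 82 cells and in 14.9% of all CCR2-/- cells. The 148 WT cells above the WT 95th percentile came from both lanes, 89 and 59 cells, and had a median of 3811 UMIs against 6131 in all WT cells. Their inflammatory cytokine transcripts were at 8547 CPM against 3450 CPM, and their heat-shock transcripts at 7804 against 5341 CPM.

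Single genes gave the same picture in shares of thinned cells with at least 1 UMI. Fos was found in 73.9% of WT and 96.8% of CCR2-/- cells, Dusp1 in 30.7% and 82.6%, and Egr1 in 16.9% and 62.7%. Unthinned shares were 96.4% and 98.8% for Fos, 71.4% and 93.0% for Dusp1, and 49.4% and 75.9% for Egr1. No cell type is known to lack these genes, so free RNA could not be gauged from one that should be empty. In cells with at least 3 lymphoid markers, 25 in WT and 24 in CCR2-/-, Dusp1 was found in 16.0% and 41.7% and Egr1 in 4% and 25%.

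The summed counts of feedback regulators and fast transcription factors were correlated over cells. Over thinned cells their counts had a Pearson r of 0.56 in WT and 0.64 in CCR2-/-, a description of cells that share a library. Dusp1 was found in 35.5% of WT cells with Fos and in 17.3% of those without it, and in CCR2-/- in 84.2% and 33.8%. Other pairs varied. In WT, Dusp1 was found in 50.5% of cells with Nr4a1 and 28.5% of those without. In CCR2-/-, Nfkbia was found in 53.2% of cells with Egr1 and 27.6% of those without. Some pairs differed little. In WT, Ier3 was found in 9.74% of cells with Fos and 9.64% of those without, and Nfkbia in 16.4% and 14.6%. In CCR2-/-, Nfkbia was found in 43.8% of cells with Nr4a1 and 43.6% of those without. In bins of like fast transcription factor counts, the feedback regulators were higher in CCR2-/-. In cells with 5 to 9 such UMIs they were at 2039 CPM in WT and 4006 CPM in CCR2-/-, a log2 ratio of 0.97. With 10 to 19 UMIs they were at 3535 and 6311 CPM (0.84), and with 20 to 39 UMIs at 6659 and 10177 CPM (0.61), the last from 91 WT and 1136 CCR2-/- cells. Within these 3 bins the fast transcription factors themselves still differed by 0.16, 0.20 and 0.19. The count used for the bins carries counting error, and its mean was 6.38 in WT and 23.9 in CCR2-/-. Cells of like count can therefore differ in true level, so the bins cannot tell whether the relation differed between the libraries.

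**Figure D4:**
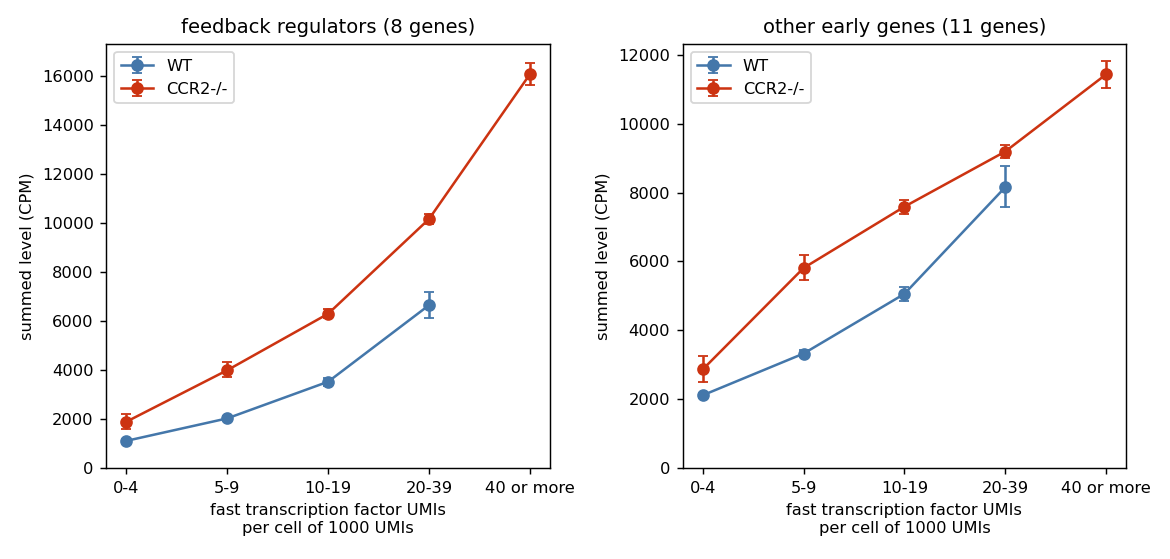
Summed level in CPM of the feedback regulators and of the other early genes against the fast transcription factor UMIs per thinned cell, with counting intervals. The CCR2-/- line lies above the WT line in each bin drawn for both, for the feedback regulators by log2 ratios of 0.61 to 0.97, and the bin of 40 or more holds 2 WT cells and is drawn for CCR2-/- only.

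The summed members were higher in CCR2-/- in each of the 4 strata of depth from 1000 UMIs upward, by a smaller ratio in deeper cells. Cells of 1000 to 2000 UMIs had 15369 CPM in WT and 48155 CPM in CCR2-/- (log2 ratio 1.65). Cells of 2000 to 4000 UMIs had 13633 and 40096 CPM (1.56), and cells of 4000 to 8000 UMIs 11461 and 32395 CPM (1.499). Above 8000 UMIs the values were 9879 and 18756 CPM (0.92), from only 19 CCR2-/- cells. Within each library, deeper cells thus had a smaller share of early response transcripts. By mitochondrial share the ratio was 1.59 at 0 to 2%, 2.03 at 2 to 4%, 1.71 at 4 to 6% and 1.24 at 6 to 10%.

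The difference was also seen in cells chosen by other genes. In cells with Cd163, a scavenger receptor of resident macrophages, the members were at 9637 CPM in WT and 49105 CPM in CCR2-/-. In cells with both Timd4 and Cd4, markers of long-lived gut macrophages, they were at 15100 and 42914 CPM, from 20 and 81 cells. Monocyte-like cells with Plac8 and low C1q had 14767 and 25476 CPM, from 103 and 42 cells, and cycling cells 8394 and 33700 CPM. Cells with interferon-induced genes had 15325 and 39412 CPM, and cells with metallothioneins 15853 and 42491 CPM.

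The order of cell kinds was not the same in both libraries. Cells with Cd163 and cells with at least 2 UMIs of Thbs1, Plaur and Vwa1 were compared, leaving out cells with both, and this pair was chosen after the values were seen. In CCR2-/- the members stood at 49021 CPM (48206 to 49847) in 281 Cd163 cells and 37093 CPM (36563 to 37630) in 503 Thbs1, Plaur and Vwa1 cells. In WT they stood at 9261 CPM (8704 to 9845) in 111 and 20682 CPM (19841 to 21550) in 110 cells. The log2 ratio of the first kind over the second was thus 0.40 in CCR2-/- and -1.16 in WT.

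By gene, the pair of CCR2-/- cell kinds split the members. The intervals stood apart for 17 members that were higher in the Cd163 cells and for 4 that were lower, and not for the other 16, beside 5.36% of all genes tested that were higher and 4.34% that were lower in this way. Ier3 was at 1363 and 320 CPM (log2 ratio 2.09), Nfkbia at 1317 and 366 CPM (1.84), Klf2 at 1950 and 579 CPM (1.75) and Egr1 at 2690 and 1191 CPM (1.18). Bhlhe40 was at 49.8 and 243 CPM (-2.26), Fosb at 826 and 1308 CPM (-0.66), Btg2 at 1612 and 2412 CPM (-0.58) and Btg1 at 1922 and 2823 CPM (-0.55). Feedback regulators were at 12025 and 6926 CPM, and other early genes at 8206 and 9066 CPM. In the WT cells 0 members were higher with intervals apart, 13 were lower and 24 were not apart, beside 1.32% of all genes higher and 1.77% lower. In both libraries these counts depend on level as well as on the ratio, because intervals are narrow for abundant genes.

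**Figure D5:**
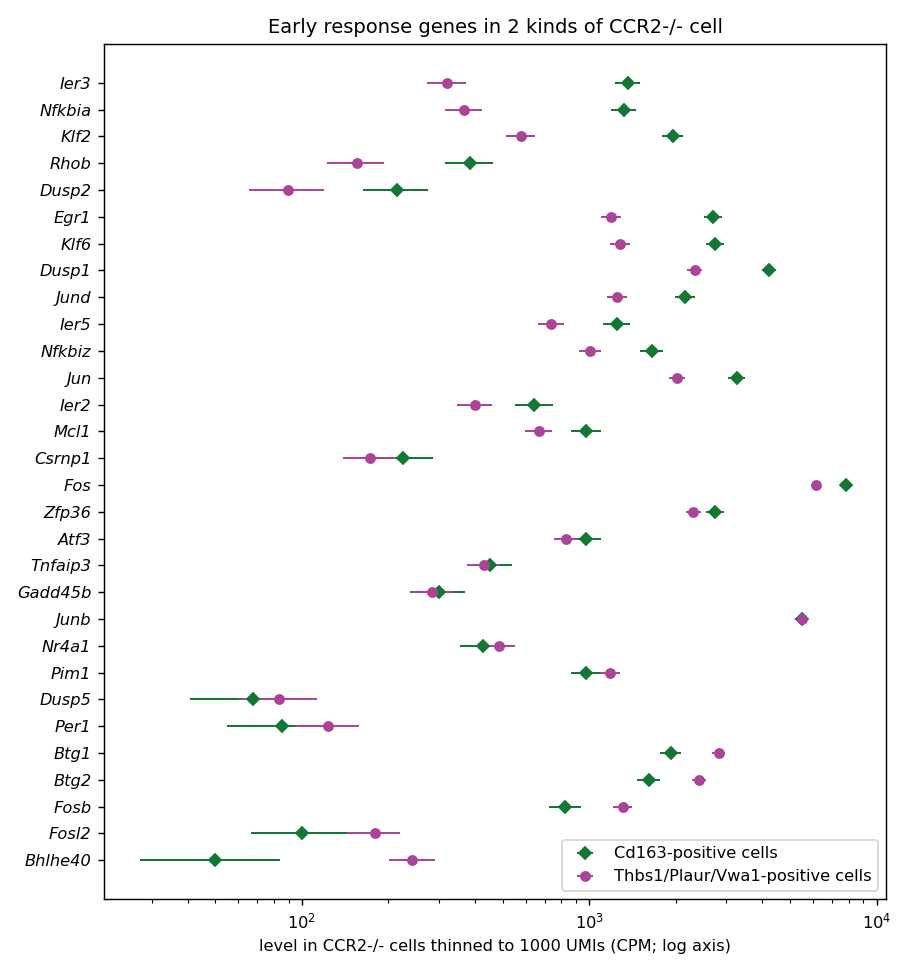
Level in CPM on a log axis in Cd163 cells and in Thbs1, Plaur and Vwa1 cells of CCR2-/-, with counting intervals. Members with at least 50 UMIs over both kinds in CCR2-/- are drawn. The log2 ratios of the first kind over the second run from -2.26 for Bhlhe40 to 2.09 for Ier3.

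Members also differed in how they followed the rest of the set within CCR2-/-. Cells were ranked by the UMIs of the other members and cut into 5 groups of equal size. Egr1 was 7.06-fold higher in the highest group than in the lowest. Klf2 was 5.91-fold higher, Jund 5.19-fold and Dusp1 4.96-fold. Btg1, Btg2 and Gadd45b differed by 1.63-fold, 1.52-fold and 1.34-fold, and Bhlhe40 was at 149 CPM in the lowest group and 95.2 CPM in the highest. Other transcripts also differed over these groups when cells were cut by the count of all members. In CCR2-/- the lowest group had erythroid markers at 14816 CPM, against 420 to 493 CPM in the other 4, a sum that few cells can carry. Its B and plasma cell markers were at 5587 CPM, against 395 to 532 CPM. C1q was low in 25.2% of its cells, and the median depth was 3363 UMIs in the lowest and 1799 UMIs in the highest group. Their part in the folds above was not tested. In WT, Bhlhe40 was at 6.63 and 86.2 CPM and Nr4a1 at 13.3 and 385 CPM.

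Genes up- and downstream of the members were taken from further lists. Of 19 measured kinases and adaptors of the MAP kinase and NF-kB pathways, 3 were at least 2-fold higher in CCR2-/- and 0 were lower, beside 9.04% and 3.12% of all genes, with a median log2 ratio of 0.35. The 3 were Map3k8 (1.45), Mapk8 (1.24) and Mapk14 (1.15), and the lowest was Map2k2 (-0.30). Of 16 transcription factors listed as preformed, 4 were at least 2-fold higher, namely Ets2 (2.57), Crem (1.68), Rel (1.47) and Rela (1.002). The other 12 lay within 2-fold, 0 were lower by that much, and the median was 0.64. The lowest of the 16 was Nfkb2 (-0.43). Whether the 4 higher ones are themselves induced by the same signals was not tested. Of 24 further early genes, 14 were higher and 1 lower, with a median of 1.105, from Cyr61 (3.76), a matrix protein gene also known from fibroblasts, Klf10 (2.02) and Ptgs2 (1.92) down to Tnip3 (-1.05).

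Inflammatory cytokine genes, many of them targets of AP-1 and NF-kB, were higher as well. The 12 listed summed to 3259 CPM in WT and 11724 CPM in CCR2-/- (log2 ratio 1.85), and 7 of the 8 measured were at least 2-fold higher, beside 9.04% of all genes. The highest in level was Ccl4 in CCR2-/- (4678 CPM) and Il1b in WT (1178 CPM). Il1b was the measured gene below 2-fold (0.89). Heat-shock genes as a sum differed in the opposite direction. They summed to 5431 CPM in WT and 2813 CPM in CCR2-/- (-0.95), with 0 of 11 at least 2-fold higher and 3 lower, beside 9.04% and 3.12% of all genes. Hsp90ab1 and Hspa8 took much of the sum, at 1564 and 1541 CPM in WT. Dnajb1 was close to equal (0.02), and Hspb1, below a mean of 10 CPM, was higher in CCR2-/- (1.97).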

How the data were processed

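The deposited matrices hold raw UMI counts per gene and cell, which the authors made with Cell Ranger 3.0.1 and mm10, per the submitters' processing notes. The annotation, the calling of cells and any equalising of lane depth are not given in the sources used here. Counts were summed per library over cells with at least 200 genes and at most 10% mitochondrial UMIs and divided by all UMIs (CPM), with exact Poisson intervals. Ratios of single genes used log2(CPM + 1) among genes with a mean of at least 10 CPM, and ratios of sums used no pseudocount and an exact binomial interval. A ratio of 2-fold stood in for a test. For values per cell, each cell was thinned to 1000 UMIs. Doublets were not removed, and removing the highest Scrublet scores (scanpy 1.11.5), 36, 7 and 55 cells in WT lane 1, lane 2 and CCR2-/-, was an alternative. All 37 members are named, and of each pathway list up to 3 of the highest and of the lowest genes. The members and lists were chosen with earlier results of these data known. Coordinates of genes are from GENCODE M21 (GRCm38). The scripts were tested on simulated data. Python 3.11.15, numpy 2.4.6, scipy 1.17.1 and pandas 2.3.3 were used. UMIs count molecules, so intervals reflect counting error only, and a gene's 3′ end shared with a close copy could not be told from it.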

Additional observations from a re-analysis of the deposited data

Results flagged for a closer look

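The summed members had opposite order in 2 kinds of cell in the 2 libraries. The log2 ratio of cells with Cd163 over cells with Thbs1, Plaur and Vwa1 was -1.16 in WT and 0.40 in CCR2-/-. The difference was not tested, because each genotype had 1 library, and the pair of cell kinds was chosen after the values were seen. Both kinds made up a larger share of CCR2-/- than of WT cells, and whether they are like cells in both libraries was not tested.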

How the results depend on the processing

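No paired analysis was possible because each genotype had 1 library. In every alternative run the summed members, fast transcription factors and feedback regulators were higher in CCR2-/-, and 30 to 35 members were at least 2-fold higher. Their log2 ratios were 1.51, 1.56 and 1.86 with median-of-ratios size factors, under which the median of all genes was -0.11 in place of 0.18, and 34.7% in place of 74.3% of the genes past 2-fold were higher. They were 1.90, 1.94 and 2.28 in cells with at most 5% mitochondrial UMIs, 1.56, 1.66 and 1.76 in cells of 2000 to 4000 UMIs, and 1.91, 1.95 and 2.29 in cells with at least 0.5% C1q UMIs. For members and fast transcription factors they were 1.82 and 1.86 against lane 1 alone and 1.85 and 1.91 against lane 2 alone. For members they were 1.84 without Fos, and 1.83 without cells of at least 5% haemoglobin UMIs, an alternative added after seeing the data. The share of CCR2-/- cells above the WT 95th percentile was 75.8% with at most 5% mitochondrial UMIs, 64.8% in cells of 2000 to 4000 UMIs, 71.5% without the highest Scrublet scores, 69.7% against lane 2 alone and 71.4% without Fos. Myc was the member whose ratio turned, to -0.080 with median-of-ratios size factors. At 2 and 4 UMIs, Egr3 was too shallow to compare.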
